A study of Mus musculus with 6 samples.

Results

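The genes described here are 38 mouse genes of the endoplasmic reticulum (ER) chaperone system and the unfolded protein response, out of 24421 genes in the deposited table. They were chosen by name, as the rows of that table whose symbol is on the list, and all 38 were found. The study sequenced poly(A) RNA from dendritic cells (DCs) of C57BL/6 bone marrow, obtained with a flow cytometry sorter on DC markers. Wild-type (WT) mice gave 3 libraries, and the other 3 came from mice labelled TCL, a model in which mouse cells of chronic lymphocytic leukaemia (CLL) are passed on by adoptive transfer. In both groups the strain, tissue and sorted cell type are the same, and no further allele or agent is labelled. The sources used here do not give the sort markers, the age of the mice, the time after transfer or any pooling of animals. Each p-value therefore measures only the spread between libraries, which may be technical in part. The comparison asks how bone marrow DCs of mice with transferred leukaemia differ from those of wild-type mice.

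Proteins that enter the secretory pathway are threaded into the ER through the SEC61 channel, folded by chaperones of the HSP70 and HSP90 families, given disulfide bonds by protein disulfide isomerases, and passed through a calnexin and calreticulin cycle if they carry sugars. Proteins that do not fold are moved back to the cytosol and destroyed, a route called ER-associated degradation. The unfolded protein response senses the load through the membrane proteins IRE1, PERK and ATF6, which act through the transcription factors XBP1, ATF4 and cleaved ATF6 to raise chaperone and degradation genes. In DCs the IRE1 and XBP1 branch is known to be active without added stress and to matter for their development and antigen presentation. XBP1 is switched on by cytosolic splicing of its mRNA, PERK and IRE1 by phosphorylation and ATF6 by cleavage. Gene-level read counts measure none of these steps, only the amount of each mRNA.

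The libraries held between 17158819 and 25674314 reads counted to genes. Levels are given as CPM, read counts scaled to a common effective library size, and differences as log2 fold changes of TCL over WT from edgeR, whose p-values were adjusted over 13010 tested genes. A gene was called when its adjusted p was under 0.05. Among all tested genes 264 were called higher in TCL (2.03%) and 340 lower (2.61%). All 9 listed conventional DC markers had enough reads to be tested. Their summed CPM ran from 47206 to 62408 in WT and from 15824 to 36982 in TCL, without overlap. Neutrophil markers reached a similar order, with sums from 27908 to 58436 CPM in WT and from 14071 to 31931 CPM in TCL. In TCL library 8 the neutrophil sum was 31931 CPM and the conventional DC sum 15824 CPM. Cd74 and H2-Ab1, which B cells and macrophages also express, made up most of the conventional DC sum. Of the 9 markers, 6 had a log2 fold change below 0 and 3 above 0, the highest at 0.61. Called lower were 3 of the 9 (Flt3, Batf3 and Irf4), but 0 of the 9 when WT library 3 or 9 or else TCL library 4 was left out. The part of these differences in the members' values was not tested. In such bulk libraries, fewer cells of a type and less RNA per cell cannot be told apart.

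Of the 38 genes, all of which were tested, 1 was called lower in TCL, the luminal cofactor Sdf2l1, and 0 were called higher. That is 2.63% of the members called lower, close to the 2.61% of all tested genes. At an unadjusted p under 0.05, edgeR gave 9 members lower and 2 higher, against 11.2% of all tested genes lower and 11.2% higher. Those 9 are 23.7% of the members. Without TCL library 10 the count of 9 was 2, without WT library 3 it was 4, without WT library 7 it was 6, without TCL library 4 it was also 6, and without TCL library 8 it was 13. In the authors' deposited table, which holds their own DESeq2 comparison, 2 members passed an adjusted p of 0.05, Sdf2l1 and Pdia6, both lower, against 4.21% of the genes with a value.

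The members, called or not, lay mostly on the lower side. The log2 fold change was below 0 for 28 of 38 members, 73.7%, against 50% of all tested genes. Their median log2 fold change was -0.17, and that of all tested genes was 0.00. All CPM values of TCL lay below all those of WT for 12 members, 31.6%, against 14.2% of all tested genes. The reverse held for 2 members, Sec61a1 and Sel1l, 5.26% against 14.1%. The summed level of the 38 genes was 8498 ± 442 CPM in WT and 7338 ± 588 CPM in TCL (mean ± SD, n = 3 each), with single libraries from 8128 to 8988 and from 6770 to 7944. The groups did not overlap in that sum. Over all tested genes the mean summed level was also lower in TCL, 1.03e+06 CPM in WT and 9.71e+05 CPM in TCL, with overlap. The count of members below 0 stayed between 28 and 31 when single libraries were left out.

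The libraries did not contribute alike. TCL library 10 held the lowest value of all 6 libraries for 20 of the 38 members, 52.6%, and for 24.1% of all tested genes. WT library 3 held the highest value for 14 members, against 13.8% of tested genes, and WT library 7 for another 14, against 26.3%. Without TCL library 10 the median of the members was -0.13.

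**Figure D1:**
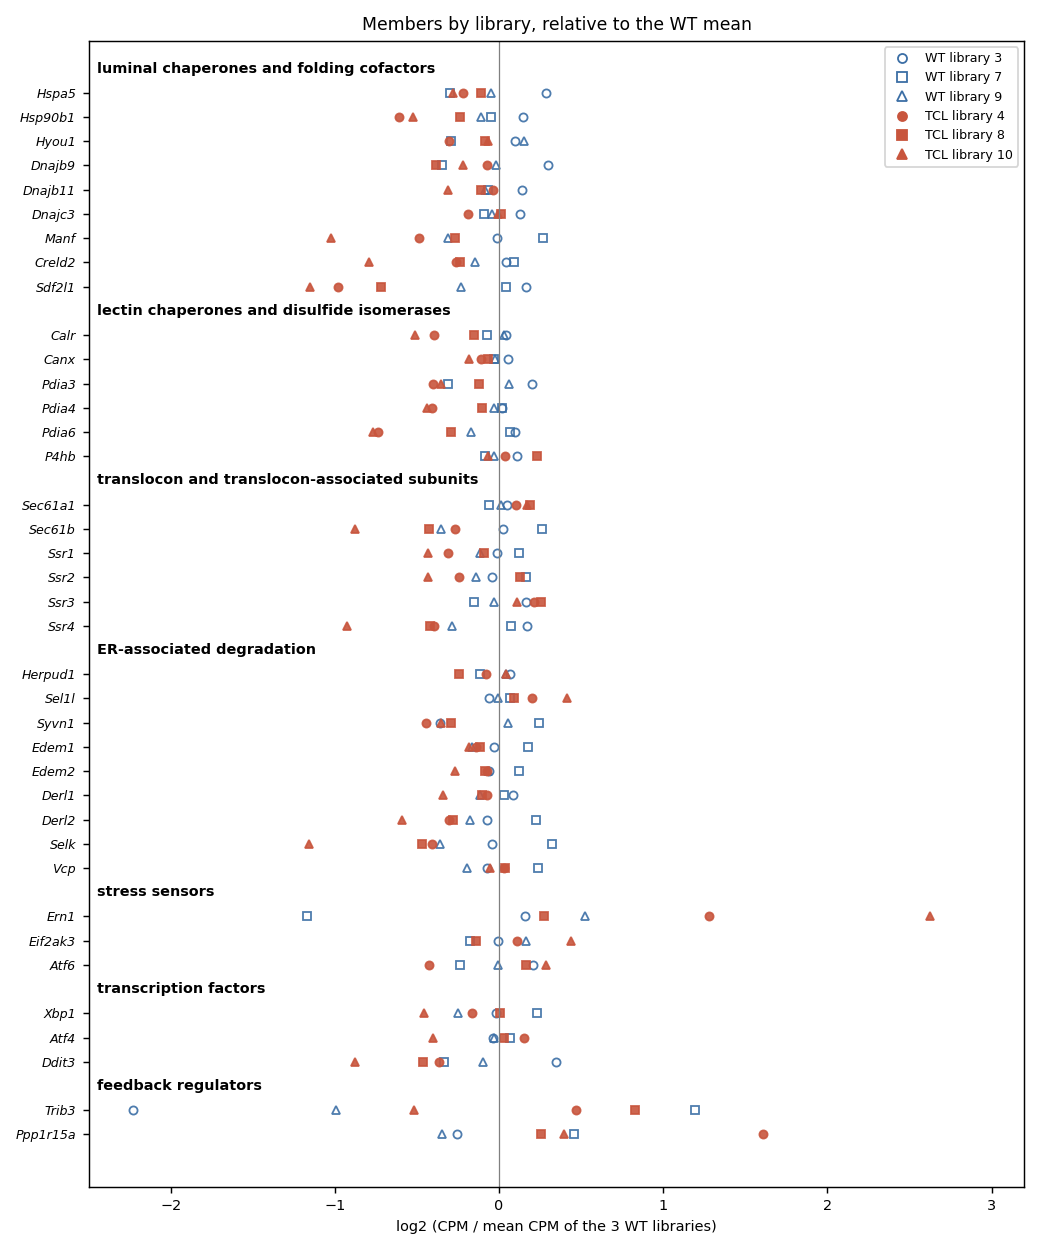
Each row is 1 of the 38 genes, grouped by role, and each point is a library: the x axis gives log2 of its CPM over the mean CPM of the 3 WT libraries. Blue open symbols are WT and red filled symbols are TCL. The 3 red points of Sdf2l1 lie to the left of all WT points, the other chaperone and isomerase rows lean left, some without overlap, apart from P4hb, and Ern1, Trib3 and Ppp1r15a are the most widely spread.

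Sdf2l1 encodes a small soluble ER protein that works with the J-domain protein ERdj3 and the HSP70 chaperone BiP to keep unfolded clients from aggregating. It lies on chromosome 16 at chr16:17130138-17132383 (GRCm38, minus strand), and no exon of another annotated gene overlaps its exons. Its level was 181, 166 and 137 CPM in WT libraries 3, 7 and 9. In TCL libraries 4, 8 and 10 it was 81.7, 97.9 and 72.6 CPM. The highest TCL value was well under the lowest WT value. The log2 fold change was -0.94 (SE 0.17), a level 47.9% lower, with an edgeR adjusted p of 0.0167. The authors' deposited table gives it a log2 fold change of -0.93 and an adjusted p of 0.000105. The edgeR call was lost without WT library 3 (adjusted p 0.0764) or without TCL library 4 (adjusted p 0.0750), at log2 fold changes that stayed between -1.06 and -0.83 over the libraries left out in turn. Over all 15 alternative settings its adjusted p ran from 5.19e-05 with DESeq2 to 0.0764.

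Its partners did not show a difference of that size. Hspa5 encodes BiP, the central HSP70 chaperone of the ER and the usual readout of the unfolded protein response. Hspa5 was at 699.9, 467 and 554 CPM in WT and 492, 531 and 472 CPM in TCL. WT library 7 had the lowest value of all 6 and WT library 3 the highest, so the groups overlapped (log2 fold change -0.20, SE 0.18, edgeR adjusted p 0.521). Dnajb11, which encodes ERdj3, was at 153, 132 and 131 CPM in WT and 135, 128 and 112 CPM in TCL, with a log2 fold change of -0.15 and an edgeR adjusted p of 0.587. The ratio of Sdf2l1 to Hspa5 CPM was 0.258, 0.355 and 0.248 in WT and 0.166, 0.184 and 0.154 in TCL. The ratio of Sdf2l1 to Dnajb11 was 1.18, 1.26 and 1.05 in WT and 0.604, 0.762 and 0.650 in TCL. Neither ratio overlapped between groups. These ratios were chosen after the values were seen and carry no test.

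The other luminal chaperones and cofactors were not called, although all 9 of the group, Sdf2l1 included, had a log2 fold change below 0, with a median of -0.22. Hsp90b1, which encodes GRP94, the HSP90 chaperone of the ER, was at 724, 631 and 604 CPM in WT. In TCL Hsp90b1 was at 428, 553 and 454 CPM. These values did not overlap, but the log2 fold change of -0.45 (SE 0.16) had an edgeR adjusted p of 0.145. Manf encodes a secreted neurotrophic factor that is held in the ER with BiP. Manf was at 225, 274 and 184 CPM in WT and 162, 189 and 112 CPM in TCL. Here TCL library 8 exceeded WT library 9, and the log2 fold change of -0.56 (SE 0.22) had an edgeR adjusted p of 0.177. Creld2, a disulfide-exchange protein that stress induces along with Manf, did not overlap between groups, at 52.2, 54.0 and 45.8 CPM in WT and 42.3, 42.9 and 29.2 CPM in TCL (edgeR adjusted p 0.225). Hyou1, a large HSP70 relative and nucleotide exchange factor for BiP, and the J-domain cofactors Dnajb9 and Dnajc3 overlapped between groups, with log2 fold changes of -0.15, -0.22 and -0.06. The summed level of the 9 genes ran from 1927 to 2323 CPM in WT and from 1502 to 1789 CPM in TCL.

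The lectin chaperones and disulfide isomerases gave 0 calls among 6 genes, with 5 of them below 0 and a median log2 fold change of -0.30. Pdia6, an isomerase that also binds the luminal part of IRE1 and PERK, was nearest to the threshold. Pdia6 was at 310.3, 304 and 258 CPM in WT and 175, 237 and 171 CPM in TCL, without overlap. The log2 fold change was -0.58 (SE 0.17), with an edgeR adjusted p of 0.0925. DESeq2 on the same reads called it (adjusted p 0.0269), as did the authors' deposited table (log2 fold change -0.57, adjusted p 0.0396). Without TCL library 8, the highest of its 3 TCL values, edgeR called it as well (adjusted p 0.0253). Over the 15 alternatives its adjusted p ran from that value to 0.248.

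Calr encodes calreticulin, a soluble lectin chaperone and calcium store, and was the most abundant of the 38 per length. Calr was at 1365, 1263 and 1356 CPM in WT and 1008, 1193 and 932 CPM in TCL, without overlap, with a log2 fold change of -0.35 and an edgeR adjusted p of 0.227. Its membrane-bound relative Canx (calnexin) differed by less, at 300.3, 284 and 284 CPM against 268, 276 and 255 CPM, again without overlap. Pdia3 (ERp57), which calnexin and calreticulin recruit and which is part of the MHC class I loading complex, was at 780.3, 548 and 709 CPM in WT and 513, 623 and 532 CPM in TCL, with overlap. Pdia4 (ERp72) was at 101, 101 and 97.3 CPM in WT and 75.0, 92.6 and 73.3 CPM in TCL, without overlap. P4hb, the founding isomerase PDI, went the other way, at 484, 423 and 439 CPM in WT and 461, 527 and 429 CPM in TCL (log2 fold change 0.07, edgeR adjusted p 0.806). The chaperone Hsp90b1 and the isomerase P4hb, both abundant, thus stood in a ratio of 1.49, 1.49 and 1.38 in WT and 0.929, 1.05 and 1.06 in TCL, a pair chosen after the values were seen.

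**Figure D2:**
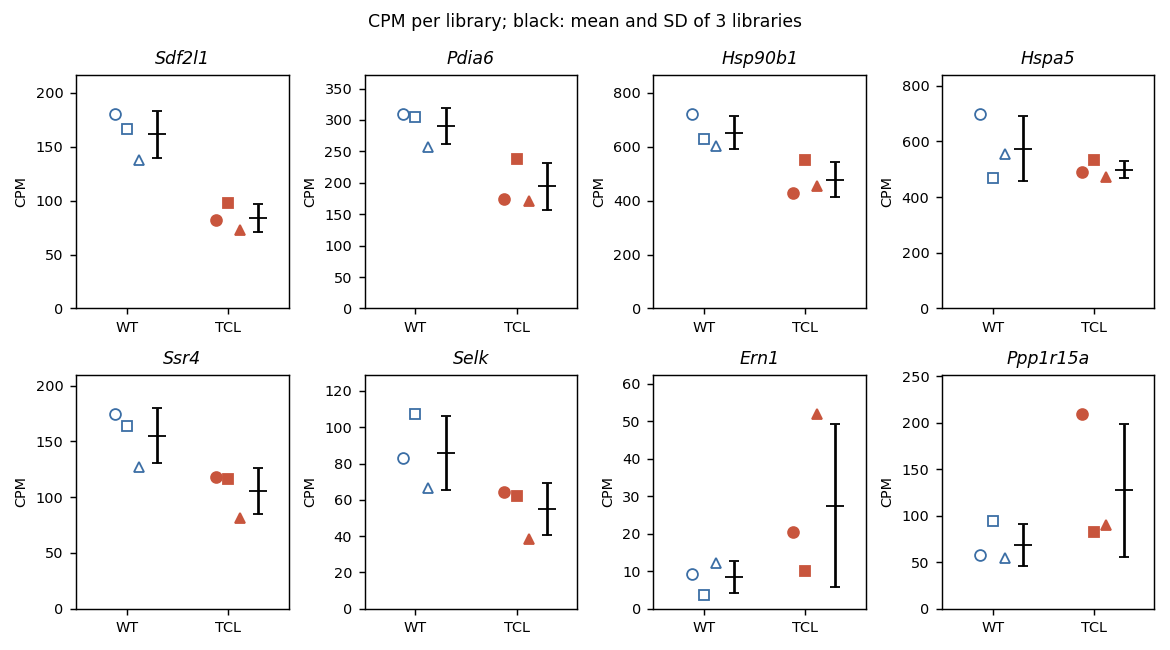
CPM of 8 members in each library, with the mean and SD of the 3 libraries of each group in black and every axis starting at 0. Circles, squares and triangles are libraries 3, 7 and 9 in WT (blue, open) and libraries 4, 8 and 10 in TCL (red, filled). Sdf2l1, Pdia6, Hsp90b1, Ssr4 and Selk do not overlap between groups, Hspa5 does, and in Ern1 and Ppp1r15a 1 TCL library stands far above the other 2.

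Among 6 subunits of the translocon, the channel through which proteins enter the ER, and of the TRAP complex beside it, 0 were called and the subunits of a single complex differed in sign. Ssr4, the delta subunit of TRAP, was at 175, 164 and 127 CPM in WT and 118, 116 and 81.5 CPM in TCL. This gave a log2 fold change of -0.56 (SE 0.19, edgeR adjusted p 0.130). Ssr3, the gamma subunit of the same complex, was at 316, 254 and 276 CPM in WT and 327, 337 and 304 CPM in TCL (log2 fold change 0.19, edgeR adjusted p 0.460). Ssr4 did not overlap between the groups and Ssr3 did. The other TRAP subunits, Ssr1 and Ssr2, had log2 fold changes of -0.27 and -0.16.

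The SEC61 channel showed the same split. Sec61a1, its pore-forming subunit, was at 155, 144 and 152 CPM in WT and 161, 171 and 169 CPM in TCL, with all TCL values above all WT values (log2 fold change 0.15, edgeR adjusted p 0.519). Sec61b, its small tail-anchored subunit, was at 128, 151 and 97.9 CPM in WT and 104, 93.3 and 68.2 CPM in TCL (log2 fold change -0.50, edgeR adjusted p 0.196). The ratio of Ssr3 to Ssr4 was 1.81, 1.55 and 2.16 in WT and 2.77, 2.90 and 3.73 in TCL. The ratio of Sec61a1 to Sec61b was 1.22, 0.954 and 1.547 in WT and 1.550, 1.83 and 2.48 in TCL. Both ratios were higher in every TCL library than in any WT library, for Sec61a1 over Sec61b by a narrow margin between WT library 9 and TCL library 4. These pairs too were picked with the values in view.

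Of 9 genes of ER-associated degradation 0 were called, 7 were below 0 and the median log2 fold change was -0.15. Sel1l and Syvn1 encode the adaptor and the ubiquitin ligase (HRD1) of the main degradation complex. Sel1l was at 108, 119 and 113 CPM in WT and 130.2, 120.4 and 151 CPM in TCL, all TCL values above all WT values (log2 fold change 0.24, edgeR adjusted p 0.355). Syvn1 was at 87.5, 133 and 117 CPM in WT and 82.6, 91.9 and 88.2 CPM in TCL, with overlap through WT library 3 (log2 fold change -0.36, edgeR adjusted p 0.255). The 2 partners of that complex thus had opposite signs, neither of them called.

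Selk, the older symbol of Selenok, encodes an ER membrane selenoprotein that binds the degradation machinery. Selk was at 83.1, 107 and 66.8 CPM in WT and 64.6, 61.9 and 38.5 CPM in TCL. The groups were separated by a small gap, and the log2 fold change of -0.64 (SE 0.24) had an edgeR adjusted p of 0.156. Derl2, a rhomboid-like protein of the exit channel, was at 81.6, 100.2 and 76.0 CPM in WT and 69.5, 70.6 and 57.1 CPM in TCL, without overlap (log2 fold change -0.39, edgeR adjusted p 0.202). Its relative Derl1 had a log2 fold change of -0.17, the mannose-trimming factors Edem1 and Edem2 had -0.15 and -0.14, and the stress-induced membrane protein Herpud1 had -0.09. Vcp, the ATPase that pulls clients out of the membrane, had a log2 fold change of 0.00 (edgeR adjusted p 0.993). The summed level of the 9 genes ran from 1119 to 1277 CPM in WT and from 1052 to 1091 CPM in TCL.

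All 3 stress sensors had log2 fold changes above 0, and 0 of them were called. Ern1, which encodes IRE1α, was at 9.39, 3.74 and 12.1 CPM in WT. In TCL Ern1 was at 20.4, 10.2 and 52.0 CPM. TCL library 10 was far above the other 5, and TCL library 8 lay below WT library 9. The log2 fold change of 1.70 (SE 0.58) had an edgeR adjusted p of 0.127, was 0.87 without TCL library 10, and was called only without TCL library 8 (2.09, adjusted p 0.0346). Its adjusted p over the 15 alternatives reached 0.434. Eif2ak3, which encodes PERK, had a log2 fold change of 0.16 and Atf6 one of 0.04, both with overlapping groups. Atf6 took either sign as single libraries were left out.

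The transcription factors gave 0 calls of 3, and all 3 were below 0. Xbp1 was at 368, 436 and 312 CPM in WT and 331, 373 and 271 CPM in TCL (log2 fold change -0.19, edgeR adjusted p 0.555). Atf4, translated more when PERK is active, was at 306, 328 and 307 CPM in WT and 349, 320.3 and 237 CPM in TCL (log2 fold change -0.05, edgeR adjusted p 0.877). Both factors overlapped between the groups. Ddit3, which encodes the pro-apoptotic factor CHOP, was at 39.4, 24.6 and 28.9 CPM in WT and 24.0, 22.5 and 16.9 CPM in TCL. Its values did not overlap, by a narrow margin between WT library 7 and TCL library 4 (log2 fold change -0.55, SE 0.23, edgeR adjusted p 0.189).

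The feedback regulators were uneven between libraries. Ppp1r15a encodes GADD34, the phosphatase subunit that reverses the PERK signal. Ppp1r15a was at 57.7, 94.4 and 54.1 CPM in WT and 209, 82.0 and 90.3 CPM in TCL. Only TCL library 4 lay above all WT libraries. The log2 fold change of 0.89 (SE 0.36, edgeR adjusted p 0.186) was 0.33 without that library. Trib3, a pseudokinase induced by ATF4 and CHOP, had few reads, 5, 48 and 15 reads in WT and 41, 56 and 24 reads in TCL.

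Per kilobase of exon, the WT level was highest for Calr, at 461 CPM per kilobase, then Pdia3 at 216, Hsp90b1 at 162, P4hb at 157 and Sdf2l1 at 146. Hspa5 came next at 136 CPM per kilobase. The sensors were at the other end, with Atf6 at 13.2, Eif2ak3 at 6.70 and Ern1 at 1.03 CPM per kilobase, and Trib3 was lowest at 0.606. On this scale Sdf2l1 stood beside the major chaperones in WT and at 75.9 CPM per kilobase in TCL, where Xbp1 was at 100.1. Exon length here joins the exons of all annotated transcripts of a gene and can exceed the length of its main mRNA. The order therefore depends in part on the annotation. In WT the mean of Ssr4 was 155 CPM and that of Sdf2l1 161 CPM, but Ssr4 was at 50.1 CPM per kilobase.

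Exon length moved with the fold changes. All tested genes were divided into 4 classes of equal size by exon length, and their median log2 fold change was -0.21 in the shortest class, then -0.02, 0.05 and 0.15 in the longest. The members showed -0.31 for the 11 in the shortest class, -0.20 for 14, -0.09 for 6 and 0.04 for the 7 longest, so that they lay below the median of all genes in every class. Spearman's rho between log2 fold change and exon length was 0.38 over the 38 members and 0.25 over 12916 tested genes with a length, both computed across genes that share the same 6 libraries. Sdf2l1 has the shortest exons of the 38, 1108 bases in sum, and Sec61b and Selk are also in the shortest class. With the trend in exon length and GC content removed, an alternative added after the data were seen, Sdf2l1 had a log2 fold change of -0.68 and was still called (edgeR adjusted p 0.0252), and the median of the members was -0.16. The log2 fold change of Sec61b then was -0.26 and that of Sec61a1 0.07, against -0.50 and 0.15 before, and that of Creld2 was -0.20, against -0.41.

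**Figure D3:**
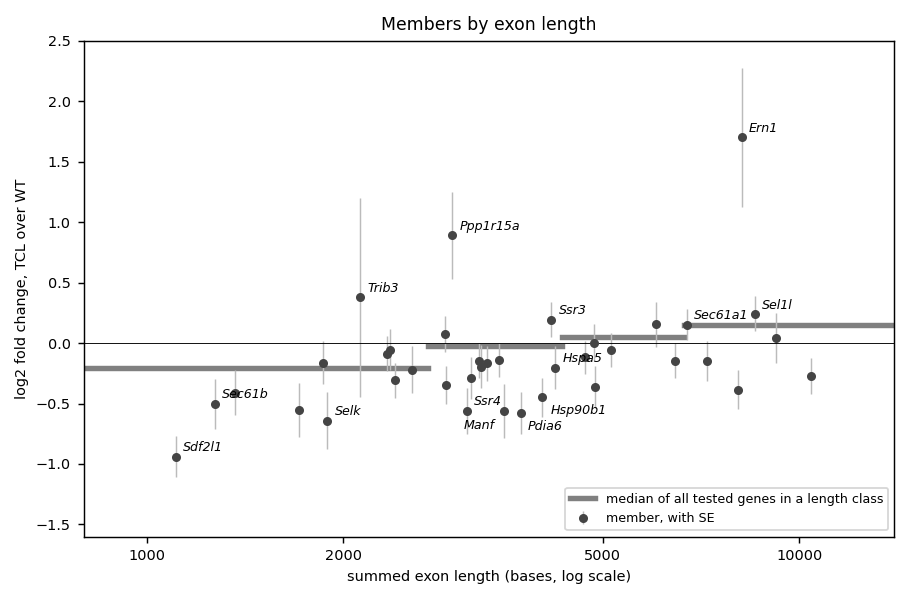
Each point is a member, with its summed exon length on a log scale on the x axis and its log2 fold change of TCL over WT, with the SE, on the y axis. Grey bars are the medians of all tested genes in the 4 classes of exon length, from -0.21 to 0.15, and most members lie below the bar of their class.

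The best known regulatory sequence of these genes is the ER stress element, CCAAT, then 9 bases, then CCACG, which ATF6 binds together with the general factor NF-Y. It was searched on both strands in the 250 bases before the RefSeq start of each gene (GRCm38.p6), available for 32 of the 38 members. It was found in 8 of them, 25%, and in 0.130% of 27025 genes. Because the element is known from such genes, the higher share among the members is a description and no test. The 8 elements shown here, with the 2 fixed blocks in capitals, are those of the members with a match, read 5′ to 3′ on the strand of the gene, so that a match on the other strand begins with CGTGG. Hsp90b1 holds another, shown in its window further on.
Hspa5: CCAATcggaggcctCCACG
Hsp90b1: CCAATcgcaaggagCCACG
Dnajc3: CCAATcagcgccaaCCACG
Canx: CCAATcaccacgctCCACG
Pdia6: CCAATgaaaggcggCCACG
Syvn1: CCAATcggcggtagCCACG
Calr: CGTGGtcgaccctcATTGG
Creld2: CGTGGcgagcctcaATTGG
The 5 bases at each end are fixed by the search, and the 9 between them differed from gene to gene.

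The 8 genes with the element code for chaperones, lectins, isomerases and a ubiquitin ligase. All 8 had log2 fold changes below 0, from -0.58 for Pdia6 to -0.06 for Dnajc3, with a median of -0.35, and 0 of them were called. All but Syvn1 belong to the luminal and lectin groups, where 9 of 9 and 5 of 6 genes were below 0, with or without an element. The part of the element in these values was not tested. The letters CCACG alone occurred in 21 of 32 members, 65.6%, against 31.0% of all genes. The shorter element II, ATTGG, 1 base, CCACG, occurred in Herpud1 only, against 0.0370% of all genes. The ATF6 and XBP1 site TGACGTGG occurred in Vcp only, against 0.603%, and the C/EBP-ATF site TGATGCAA in Herpud1 only, against 0.918%. A match to CCACG is contained in every match to either stress element.

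The upstream windows of 4 members are shown for the called gene Sdf2l1 and for the genes with an element that lay nearest to the threshold or were most abundant. All are read on the strand of the gene, cut at the annotated gene boundary, with the elements and further matches to CCACG or its reverse complement CGTGG in capitals. They cover chr16:17132384-17132633 on the minus strand for Sdf2l1, chr12:17266339-17266544 on the plus strand for Pdia6, chr10:86705510-86705694 on the minus strand for Hsp90b1 and chr8:84846935-84847181 on the minus strand for Calr.
Sdf2l1: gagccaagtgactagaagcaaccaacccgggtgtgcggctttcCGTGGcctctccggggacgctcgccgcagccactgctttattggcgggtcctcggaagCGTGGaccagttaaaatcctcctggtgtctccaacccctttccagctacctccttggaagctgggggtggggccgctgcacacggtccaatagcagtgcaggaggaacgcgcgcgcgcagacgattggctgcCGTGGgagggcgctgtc
Pdia6: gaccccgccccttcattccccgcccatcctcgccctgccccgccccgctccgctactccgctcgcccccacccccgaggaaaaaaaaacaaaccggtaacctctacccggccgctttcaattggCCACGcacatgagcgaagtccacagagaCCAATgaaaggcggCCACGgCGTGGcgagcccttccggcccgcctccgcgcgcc
Hsp90b1: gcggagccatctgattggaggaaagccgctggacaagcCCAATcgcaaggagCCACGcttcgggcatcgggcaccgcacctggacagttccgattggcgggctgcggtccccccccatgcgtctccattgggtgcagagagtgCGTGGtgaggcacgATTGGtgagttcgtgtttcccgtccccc
Calr: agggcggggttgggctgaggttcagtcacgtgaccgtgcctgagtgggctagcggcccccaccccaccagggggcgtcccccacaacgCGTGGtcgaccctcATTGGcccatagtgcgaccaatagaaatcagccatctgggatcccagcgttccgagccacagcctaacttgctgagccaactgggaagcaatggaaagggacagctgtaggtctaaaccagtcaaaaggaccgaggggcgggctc
In the window of Sdf2l1 the search found CGTGG at 3 places and no exact stress element, which says only that these letters were not in this stretch.

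Other genes of the secretory and stress pathways were read in the same way from 10 lists that hold none of the 38. The lists nearest to the chaperones in function had few calls. Among 20 genes of oxidative folding 1 was called lower, with a median log2 fold change of -0.17. It was Pdia5, another disulfide isomerase, at 19.8, 32.4 and 21.1 CPM in WT and 6.71, 13.0 and 10.3 CPM in TCL (log2 fold change -1.28, SE 0.29, edgeR adjusted p 0.0408). The call of Pdia5 was lost when any of the WT libraries, TCL library 4 or TCL library 10 was left out, and with library size as the only scaling. Erp29, a luminal escort protein, had a log2 fold change of -0.60 (edgeR adjusted p 0.103), and the reductase gene Dnajc10 one of 0.54 (edgeR adjusted p 0.117).

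The lists for entry into the ER held 0 calls and medians below 0. Signal recognition, translocation and signal peptidase had a median of -0.26 over 19 tested genes, 11 below 0 and 8 above 0, from -0.76 to 1.36. Smallest in adjusted p were the peptidase subunits Sec11c at -0.76 and Spcs2 at -0.57 and the translocation protein Tram1 at -0.47. Oligosaccharyltransferase, which adds sugars to entering proteins, had a median of -0.27 over 11 genes, 7 below 0 and 4 above 0, with Tmem258 at -0.57. In contrast, 21 degradation factors beyond the members had a median of 0.01, 18 genes of COPII transport one of 0.02, and 9 of glycan trimming one of -0.08, all with 0 calls. Of the 21 degradation factors, 10 were below 0 and 11 above 0. The 3 smallest in adjusted p were all higher, Ubxn8 at 0.60, Nploc4 at 0.39 and Ube2g2 at 0.46 (edgeR adjusted p 0.0952, 0.138 and 0.193). In the list of 18 stress transducers the median was 0.14, also with 0 calls.

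Targets of ATF4 and CHOP held 2 genes called higher among 21 tested, with a median log2 fold change of 0.19. Cebpb, a transcription factor of myeloid cells, was at 535, 734 and 494 CPM in WT and 1688, 1043 and 969.7 CPM in TCL (log2 fold change 1.07, SE 0.25, edgeR adjusted p 0.0413). Atf5, a factor of the amino acid and mitochondrial stress responses, was at 11.9, 11.9 and 11.8 CPM in WT and 20.0, 22.1 and 18.8 CPM in TCL (log2 fold change 0.77, SE 0.18, edgeR adjusted p 0.0462). The groups did not overlap for either gene. The call of Cebpb was lost when any WT library or TCL library 4 was left out, and that of Atf5 when any of the 6 was left out, with a filter of 5 CPM and with limma-voom. Atf3, from the same list, stood on the other side, at 64.3, 46.0 and 57.5 CPM in WT and 16.0, 36.6 and 24.8 CPM in TCL (log2 fold change -1.11, edgeR adjusted p 0.0534).

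Of 8 mRNAs described in mouse cells as substrates of IRE1-dependent decay, 3 were called lower, and the median log2 fold change was -0.46. These were Sparc and Col6a1, which encode matrix proteins, and the scavenger receptor gene Scara3. Sparc was at 17.2, 58.5 and 33.8 CPM in WT and 0.653, 1.51 and 2.47 CPM in TCL (log2 fold change -4.54, edgeR adjusted p 0.00273). Col6a1 had 80, 127 and 146 reads in WT and 1, 0 and 5 in TCL. Scara3 had 19, 27 and 23 reads in WT and 0, 2 and 0 in TCL, and its call was lost when any WT library, TCL library 4 or TCL library 10 was left out. Sparc and Pdgfrb, another of the 8, are also on the list of stromal and endothelial markers. Of that list, 6 of 12 tested genes were called lower and 1 higher, with a median log2 fold change of -3.21. The summed level of that list, 233 to 501 CPM in WT and 210.5 to 306 CPM in TCL, joins opposite differences. Of its 12 tested genes, 9 had a log2 fold change below 0 and 3 above 0. Its gene called higher, Pecam1, was at 91.6 ± 4.81 CPM in WT and 211 ± 46.1 CPM in TCL (mean ± SD, n = 3 each). The stromal chemokine gene Cxcl12 was at 137 ± 80.5 CPM in WT and 3.91 ± 2.78 CPM in TCL (mean ± SD, n = 3 each). Pecam1 alone is no measure of endothelial cells. The part of stromal and endothelial cells in the result was not tested. In the cytosol, the constitutive HSP70 gene Hspa8 was the 1 of 14 heat shock genes called, higher, at 309.6, 219.6 and 236 CPM in WT and 399.9, 397 and 470.4 CPM in TCL (log2 fold change 0.73, edgeR adjusted p 0.0462). Leaving out either TCL library 4 or 10, or WT library 7 or 9, ended its call.

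**Figure D4:**
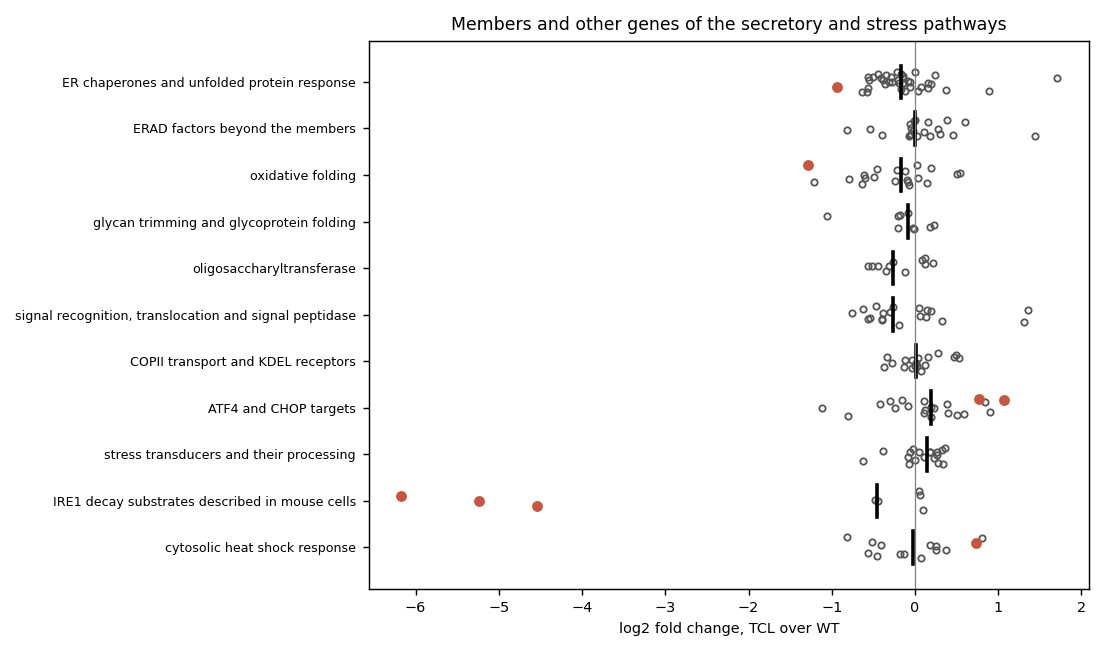
Each point is a tested gene, placed by its log2 fold change of TCL over WT on the x axis. The top row holds the 38 members and the rows under it the 10 other lists, with black bars at the medians and red filled points for genes with an adjusted p under 0.05. The members and the entry lists have medians below 0, with Sdf2l1 as the only red point in the top row.

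Markers of plasma cells, which have a large secretory apparatus, and of B cells were also lower in TCL in sum. The summed level of 10 plasma cell markers, counted without Xbp1, ran from 1283 to 1897 CPM in WT and from 386 to 447 CPM in TCL, with 2 of 10 called lower and no gene of the list at 0. In WT most of that sum was Jchain, the joining chain of secreted IgM and IgA, and in TCL the largest share was Txndc5. Jchain was at 820.5, 1439 and 747 CPM in WT and 131, 96.4 and 23.1 CPM in TCL (log2 fold change -3.59, edgeR adjusted p 0.00825), a call that was lost with no filter beyond 1 read (adjusted p 0.0741). The other called gene, Irf4, is on the conventional DC list as well. Txndc5, an ER isomerase, was at 169 ± 5.42 CPM in WT and 160.2 ± 20.7 CPM in TCL (mean ± SD, n = 3 each) and had a log2 fold change of -0.08 (edgeR adjusted p 0.782). B cell markers summed to 320 to 764 CPM in WT and 207 to 290 CPM in TCL, with 6 of 12 called lower, but 1 when either WT library 7 or 9, or either TCL library 4 or 10, was left out. Of the plasma cell markers 1 to 3 were called lower as single libraries were left out, 1 of them without TCL library 4 or any WT library. The part of these cells in the level of Sdf2l1 or of the other members was not tested.

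Several other marker lists differed as well. Monocyte and macrophage markers summed to 14161 to 16275 CPM in WT and 7475 to 8233 CPM in TCL. Called lower were 7 of 14, and 5 to 10 as single libraries were left out. Of the 14, 11 had a log2 fold change below 0 and 3 above 0. The 2 most abundant differed in sign, Apoe at -1.59 (edgeR adjusted p 0.00806) and Csf1r at 0.61 (edgeR adjusted p 0.197). Csf1r was at 1291, 1138 and 1379 CPM in WT and 2332, 1170 and 2324 CPM in TCL, with overlap. Basophil and mast cell markers had 5 of 7 called lower, but 0 when WT library 7 or 9 or TCL library 4 or 10 was left out. Neutrophil markers summed to 27908 to 58436 CPM in WT and 14071 to 31931 CPM in TCL, with 0 of 13 called by edgeR, 1 by DESeq2 and 4 lower at an unadjusted p under 0.05. Plasmacytoid DC markers overlapped in sum, at 1219 to 1476 CPM in WT and 1134 to 1545 CPM in TCL, with 0 of 11 called. Their log2 fold changes were above 0 for 7 and below 0 for 4, with a median of 0.49. T and NK cell markers had 1 of 10 called higher, and 0 to 2 as single libraries were left out. Erythroid markers summed to 198 to 267 CPM in WT and 394 to 1129 CPM in TCL, with 1 of 7 called higher (1 to 4 as single libraries were left out). Hba-a1, Hba-a2 and Hbb-bt were at 0 in all libraries and so add nothing to the erythroid sum. Whether their RNA was absent or its reads were not counted cannot be told from these values. The part of the cells of these lists in the members' values was not tested.

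For 14 of the 38 genes an exon overlaps an exon of another annotated gene, for example Atp6v1c2 with Pdia6, Rbm15b and Dcaf1 with Manf, Mars with Ddit3 and Mis12 with Derl2. The sources used here do not give the strand setting of the counting, so reads in the shared stretches cannot be assigned with certainty.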

How the data were processed

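The members and all gene lists were chosen with earlier results of these data known. The authors deposited, per the file headers, a normalized signal for each gene in each of 6 libraries, and, from their own comparison, a log2 fold change and a raw and an adjusted p-value. Per the submitters' processing notes, the tools were STAR 2.4.2a, cutadapt, HTSeq and DESeq2, and the build mm10. The gene annotation they used is not given in the sources used here. Every deposited signal value was a whole multiple of the smallest one in its library (100% within 0.001), so whole reads were recovered by division, and levels and tests rest on these. The totals ran from 17158819 to 25674314 reads. Columns carry running numbers (WT 3, 7 and 9, TCL 4, 8 and 10) that match no replicate number, so a column stands for a library of its labelled group and no more. CPM were computed from the reads, the effective library size being the total times its TMM factor. The labels name no batch.

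Reads were filtered with filterByExpr, scaled with TMM factors and tested with the robust quasi-likelihood test of edgeR 4.0.16 (R 4.3.3), with Benjamini-Hochberg adjustment over 13010 genes and a threshold of 0.05. The SE is the absolute log2 fold change over the square root of F. The script was tested on simulated data with known changes. There it called 50% of 2-fold and 86.5% of 4-fold changes, and 14 of its 149 calls were false. A member that was not called may therefore still differ between the groups. The share of false calls there was above the threshold of 0.05, so genes called just under it are less firm. Alternatives used DESeq2 1.42.0 and limma 3.58.1, other scalings, filters of 5 CPM in 3 libraries or none, and pseudocounts of 1 and 5. The main test is a count test on recovered reads. The log-scale test on the deposited signal is limma with a trend on log2 of the value plus 1. Named genes were all members, 3 genes with the smallest adjusted p from each pathway list, and the 2 most abundant genes and any at 0 from each cell type list. Any of these whose values are not printed are covered by their list's counts. Exon lengths, the union of all annotated exons of a gene, and positions are from GENCODE on GRCm38, upstream sequences from RefSeq on GRCm38.p6. The 3 libraries a group limit the precision of every value.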

Additional observations from a re-analysis of the deposited data

How the results depend on the processing

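No paired analysis was possible because the library columns carry no replicate number of the labels. Whether neighbouring running numbers (3 and 4, 7 and 8, 9 and 10) mark pairs is not stated, and no block on them was fitted. Over all genes, edgeR called 604, against 1453 with DESeq2, 1240 at an adjusted p under 0.1 and 246 to 904 with single libraries left out. Members called lower were 1 in edgeR, 2 with DESeq2, 2 at an adjusted p under 0.1 and 0 to 2 with single libraries left out: 2 without TCL library 8, and 0 without TCL library 4 or without WT library 3. Members called higher were 0, and 0 to 1 with single libraries left out, the 1 being Ern1 without TCL library 8. The median log2 fold change of the members was -0.073 with library size as the only scaling, where that of all tested genes was 0.089, and between -0.21 and -0.13 with single libraries left out.

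Of the 38 members, 30 kept the sign of their log2 fold change in all 15 alternatives and 8 did not. With library size only, Dnajc3 was at 0.034 and Atf4 at 0.032. With the length and GC trend removed, which was added after the data were seen, Ssr2 was at 0.0025, Herpud1 at 0.035, Vcp at -0.057, Atf6 at -0.083 and Atf4 at 0.059. With a filter of 5 CPM, Vcp was at -0.0071, and Trib3 was not tested. With single libraries left out, Dnajc3 ran from -0.10 to 0.012, P4hb ran from -0.010 to 0.15, Vcp ran from -0.071 to 0.14, Atf6 ran from -0.085 to 0.23, Atf4 ran from -0.17 to 0.11, and Trib3 from -0.094 to 1.81. At 3 libraries a group, single libraries decide which members pass, so counts of calls here are less firm than the levels themselves.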
